A study of Mus musculus with 23 samples.

Results

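The 10 genes followed here carry the insulin and IGF-1 signal from the cell surface to the FoxO transcription factors. They are the ligand Igf1, the receptors Igf1r and Insr, the adaptors Irs1 and Irs2, the kinases Akt1 and Akt2, and the transcription factors Foxo1, Foxo3 and Foxo4. They were picked out by gene symbol, and chosen with earlier results of these data known. All 10 were measured in both tissues, among 12831 genes in quadriceps and 16962 genes in epididymal fat.

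Insulin and IGF-1 bind receptor tyrosine kinases, which phosphorylate the IRS adaptors, and the adaptors in turn recruit PI 3-kinase and activate Akt. Active Akt phosphorylates the FoxO proteins and keeps them out of the nucleus. In muscle the pathway sets the balance between growth and protein breakdown, since nuclear FoxO factors switch on ubiquitin ligases and autophagy genes, and in fat it promotes glucose uptake and lipid storage. Most of this control acts on phosphorylation and location of proteins, which the mRNA counts reported here do not measure.

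Messenger RNA was sequenced in bulk from 23 libraries. The quadriceps libraries came from 3 no tumor, 4 KPC and 4 KPC IL6KO animals, and epididymal fat gave 4 libraries in every group. The mice were male C57BL/6J, were operated on at 8 weeks of age and carried no edited gene themselves. KPC mice received, in the pancreas, cells of a line from a mouse pancreatic tumor, and these cells had been given a null CRISPR plasmid. KPC IL6KO mice received cells of the same origin in which Il6 had been edited, so that the gene was edited in the tumor cells and not in the host, and no tumor mice had sham surgery. Each tumor line was a single clone, and differences between KPC and KPC IL6KO therefore cannot be told apart from differences between these clones. All groups were killed when KPC mice had wasted. Muscle and fat libraries carry different numbers in the labels and were extracted and sequenced separately, and whether they came from the same mice is not given in the sources used here.

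Counts per library summed to between 19259763 and 74907810 in quadriceps and between 26306377 and 56308545 in fat, and the shallowest was no tumor library 3 of quadriceps. Levels are CPM with library sizes corrected by TMM, and 3 counts, the limit that a count of 0 allows, were worth at most 0.154 CPM. This limit covers counting error only. A gene was called when the edgeR FDR was at most 0.05 and the FC at least 1.5. The p-values set the difference between groups against the spread between libraries within groups. Summed CPM of 7 muscle fibre markers in quadriceps was 181403 to 223877 in no tumor, 155010 to 188048 in KPC and 210175 to 226172 in KPC IL6KO, and that of the 5 measured of 7 neutrophil markers was 2.98 to 4.51, 5.65 to 22.6 and 4.55 to 8.04 CPM. Their part in the results for muscle was not tested. None of the listed epididymis, lymphocyte or pancreas markers was in the quadriceps table. In fat, 7 adipocyte markers summed to between 1055 and 19379 CPM, but Gpx5, which encodes a secreted protein of the epididymis, was between 21347 and 54957 CPM in 7 of 12 libraries and between 4.69 and 85.8 CPM in the other 5. Muscle fibre markers in fat summed to 8.64 to 293 CPM in no tumor, 3.07 to 5.56 CPM in KPC and 95.3 to 2891 CPM in KPC IL6KO.

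In quadriceps of KPC mice, 5 of the 10 genes rose and 2 fell against no tumor. Insr, Irs2, Akt1, Foxo1 and Foxo3 rose, whereas Igf1 and Irs1 fell. Of all genes tested, 26.7% were called higher and 29% were called lower in KPC. The count of members that fell was thus near the background share, and the count that rose was above it. With only 10 genes, chosen with earlier results of these data known, neither count was tested against its share. The median log2 FC of the members was 0.97, against -0.03 for all genes. In 8 of the 10 genes no library of one group lay within the range of the other, which was the case for 65.3% of all genes.

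Against KPC IL6KO, 6 members were higher in KPC, the same 5 and Igf1r, and 2 were lower, Igf1 and Irs1. The share of all genes called was 26.4% higher and 27.3% lower, and groups did not overlap in 7 members and in 62% of all genes. Between KPC IL6KO and no tumor, 0 members were called by edgeR's quasi-likelihood test, and 0 had an unadjusted p under 0.05. The background was 0% of genes called, 887 genes were at an unadjusted p under 0.05, and 3 members and 15.5% of all genes had groups that did not overlap. Neither the edgeR likelihood ratio test nor DESeq2 called a member in this comparison, where they called 95 and 93 of all genes. Each pair of comparisons has libraries in common, so the values of one are not independent of those of another.

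**Figure D1:**
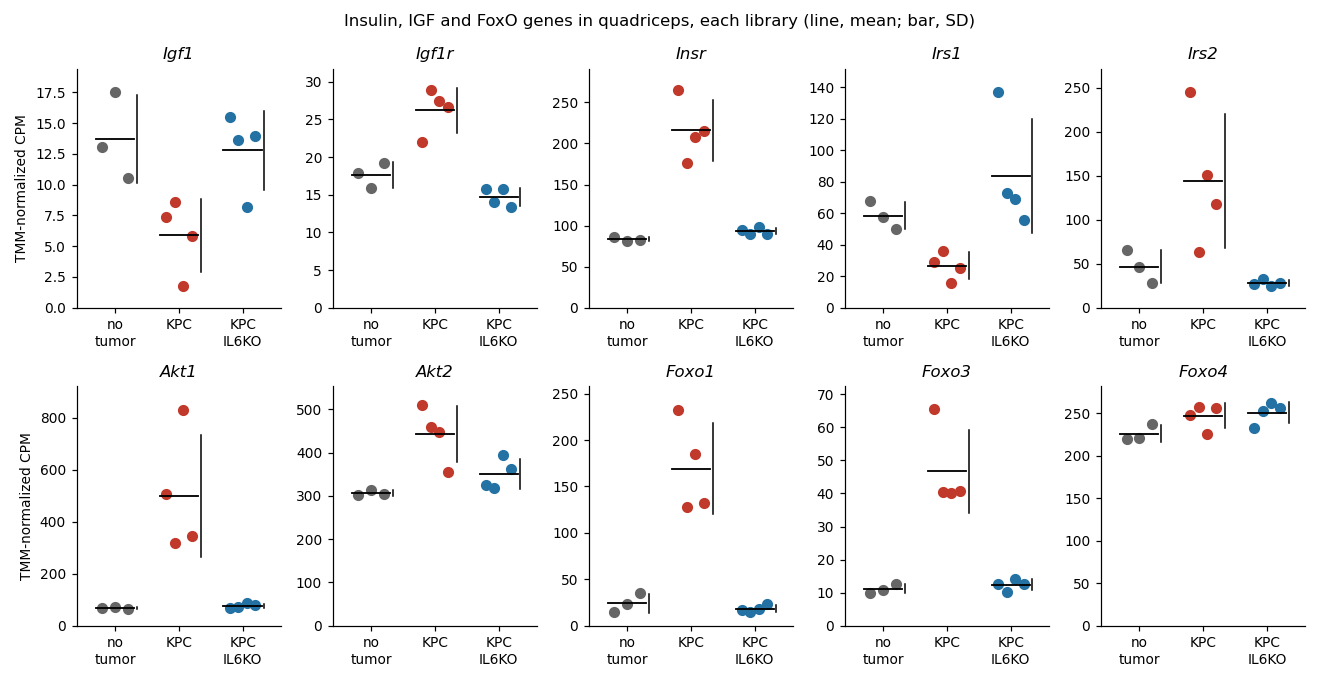
TMM-normalized CPM (y axis, linear from 0) of each of the 10 genes in each quadriceps library, by group (x axis). Points are libraries, horizontal lines group means and vertical bars 1 SD. Akt1 in the 4 KPC libraries lies between 316 and 829.6 CPM, above all no tumor and KPC IL6KO libraries, whereas Foxo4 libraries of all 3 groups share one range.

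Igf1 encodes the growth factor IGF-1, which muscle and its connective tissue cells make for local use. It lies on chromosome 10 at 87858265 to 87937042, plus strand, in build GRCm38. Its level was 13.02, 17.5 and 10.6 CPM in no tumor, 7.36, 8.59, 1.78 and 5.83 CPM in KPC, and 15.5, 13.6, 8.15 and 13.9 CPM in KPC IL6KO. All KPC libraries were below all no tumor libraries, and KPC library 3 was the lowest, whereas KPC library 2 reached above KPC IL6KO library 3. The log2 FC of KPC was -1.22 ± 0.41 (SE) against no tumor (FDR 0.0190) and -1.12 ± 0.38 against KPC IL6KO (FDR 0.0215). The call was lost without no tumor library 2 (log2 FC -1.004, FDR 0.0808) and, against KPC IL6KO, without KPC IL6KO library 1 (log2 FC -1.01, FDR 0.0547). Summed CPM of the 6 fibroblast and fibro-adipogenic progenitor markers moved with it, from 968 to 1052 in no tumor and 570 to 833 in KPC IL6KO to 191 to 292 in KPC. All 6 markers were in the table and 5 of them were called lower in KPC than in no tumor. The part of these cells in the Igf1 result was not tested, and in bulk tissue fewer cells of a type and less RNA per cell cannot be told apart.

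Both receptor genes had their highest levels in KPC. Insr, which encodes the insulin receptor, lies on chromosome 8 at 3122061 to 3279617, minus strand. Its level was 85.9, 81.1 and 82.9 CPM in no tumor, 265, 176, 208 and 215 CPM in KPC, and 94.6, 89.7, 97.9 and 90.3 CPM in KPC IL6KO. Every KPC library was above every other library, and the KPC IL6KO libraries were all slightly above the no tumor ones. The log2 FC of KPC was 1.37 ± 0.13 against no tumor (FDR 5.53e-06) and 1.21 ± 0.12 against KPC IL6KO (FDR 5.71e-06), and that of KPC IL6KO against no tumor was 0.16 with a 95% interval of -0.11 to 0.43, not called.

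Igf1r, which encodes the IGF-1 receptor, lies on chromosome 7 at 67952827 to 68233668, plus strand. Its level was 17.9, 15.9 and 19.2 CPM in no tumor, 21.98, 28.9, 27.4 and 26.6 CPM in KPC, and 15.7, 14.1, 15.7 and 13.4 CPM in KPC IL6KO. The 3 groups did not overlap, with KPC highest and KPC IL6KO lowest. Against KPC IL6KO, Igf1r rose by 0.83 ± 0.11 on the log2 scale (FDR 5.62e-05). Against no tumor the log2 FC of KPC was 0.57 ± 0.12 (FDR 0.00141), just under the FC threshold, and it was past that threshold with DESeq2 (0.61), RLE normalization (0.61), the 2 groups alone (0.60) and a replicate block (0.59), and also without no tumor library 1, no tumor library 3 or KPC library 1, where the highest value was 0.65.

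The adaptors went in opposite directions. Irs1 and Irs2 encode docking proteins that link the receptors to PI 3-kinase, and they lie on chromosome 1 at 82233101 to 82291416 and on chromosome 8 at 10984681 to 11008458, both on the minus strand. Irs1 was at 67.5, 57.8 and 50.3 CPM in no tumor, 29.2, 36.3, 15.9 and 25.3 CPM in KPC, and 137, 72.7, 69.0 and 55.9 CPM in KPC IL6KO. All KPC libraries were below all others, and KPC IL6KO library 1 stood highest. Irs1 fell in KPC by 1.14 ± 0.31 on the log2 scale against no tumor (FDR 0.00658) and had a log2 FC of -1.65 ± 0.30 against KPC IL6KO (FDR 0.000419).

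Irs2 was at 65.4, 46.7 and 28.2 CPM in no tumor, 245, 63.6, 150.5 and 118 CPM in KPC, and 26.7, 33.2, 24.3 and 28.3 CPM in KPC IL6KO. KPC library 2 was below no tumor library 1, so these groups overlapped, whereas every KPC library was above every KPC IL6KO library. The log2 FC of Irs2 in KPC was 1.62 ± 0.39 against no tumor (FDR 0.00322) and 2.36 ± 0.36 against KPC IL6KO (FDR 0.000146), and that of KPC IL6KO against no tumor was -0.74 with a 95% interval of -1.55 to 0.08 (FDR 0.799). Exons of Irs1, Irs2 and Foxo1 overlap those of the opposite-strand genes Gm9747, 9530052E02Rik and Gm20402, of which 9530052E02Rik was itself in the quadriceps table. The sources used here do not state whether counting used strand, so reads of these pairs cannot be told apart.

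Akt1 and Akt2 encode the kinases that pass the signal on, Akt2 being the form best known for insulin's metabolic actions in muscle and fat. Akt1 lies on chromosome 12 at 112653821 to 112674884, minus strand, and Akt2 on chromosome 7 at 27591552 to 27640826, plus strand. Akt1 was at 68.7, 70.5 and 65.6 CPM in no tumor, 505, 316, 829.6 and 346 CPM in KPC, and 68.1, 71.8, 86.7 and 79.0 CPM in KPC IL6KO. All 4 KPC libraries were far above the rest, with KPC library 3 the highest, and no tumor and KPC IL6KO overlapped. The mean of KPC was 7.31 times that of no tumor and 6.54 times that of KPC IL6KO. The log2 FC was 2.87 ± 0.30 against no tumor (FDR 1.10e-05) and 2.71 ± 0.27 against KPC IL6KO (FDR 6.56e-06).

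Akt2 differed much less. Its level was 302, 313 and 304 CPM in no tumor, 511, 459.9, 447 and 356 CPM in KPC, and 325, 318, 394 and 363 CPM in KPC IL6KO. KPC and KPC IL6KO were each above no tumor without overlap, and KPC library 4 lay within the range of KPC IL6KO. The log2 FC of KPC was 0.53 ± 0.13 against no tumor (FDR 0.00350) and 0.34 ± 0.12 against KPC IL6KO (FDR 0.0242), both under the FC threshold. Without KPC library 4 the first was 0.62 and was called.

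Foxo1, Foxo3 and Foxo4 encode FoxO factors. They lie on chromosome 3 at 52268336 to 52353221, plus strand, on chromosome 10 at 42181841 to 42276755, minus strand, and on chromosome X at 101254528 to 101260873, plus strand. Foxo1 was at 14.3, 23.1 and 35.04 CPM in no tumor, 232, 128, 185 and 132 CPM in KPC, and 16.9, 15.1, 17.7 and 23.4 CPM in KPC IL6KO. No KPC library was near the others, and the highest of the rest was no tumor library 3, the shallowest library. In KPC, Foxo1 had a log2 FC of 2.82 ± 0.32 against no tumor (FDR 1.81e-05) and 3.21 ± 0.29 against KPC IL6KO (FDR 3.93e-06). KPC IL6KO against no tumor gave -0.39 with a 95% interval of -1.03 to 0.24, not called, and -0.03 without no tumor library 3.

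Foxo3 was at 9.97, 10.9 and 12.7 CPM in no tumor, 65.5, 40.4, 40.2 and 40.8 CPM in KPC, and 12.5, 10.3, 14.2 and 12.5 CPM in KPC IL6KO. KPC libraries 2 to 4 lay close together under KPC library 1, and all 4 were above every no tumor and KPC IL6KO library. Foxo3 in KPC had a log2 FC of 2.07 ± 0.20 against no tumor (FDR 6.09e-06) and 1.91 ± 0.18 against KPC IL6KO (FDR 4.30e-06).

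Foxo4 was the FoxO gene with the smallest difference between groups. It was at 219.8, 221 and 237 CPM in no tumor, 248, 258, 226 and 256 CPM in KPC, and 233, 252, 262 and 256 CPM in KPC IL6KO. The groups overlapped. In KPC the log2 FC was 0.13 with a 95% interval of -0.07 to 0.33 against no tumor (FDR 0.233) and -0.02 with an interval of -0.21 to 0.17 against KPC IL6KO (FDR 0.842).

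**Figure D2:**
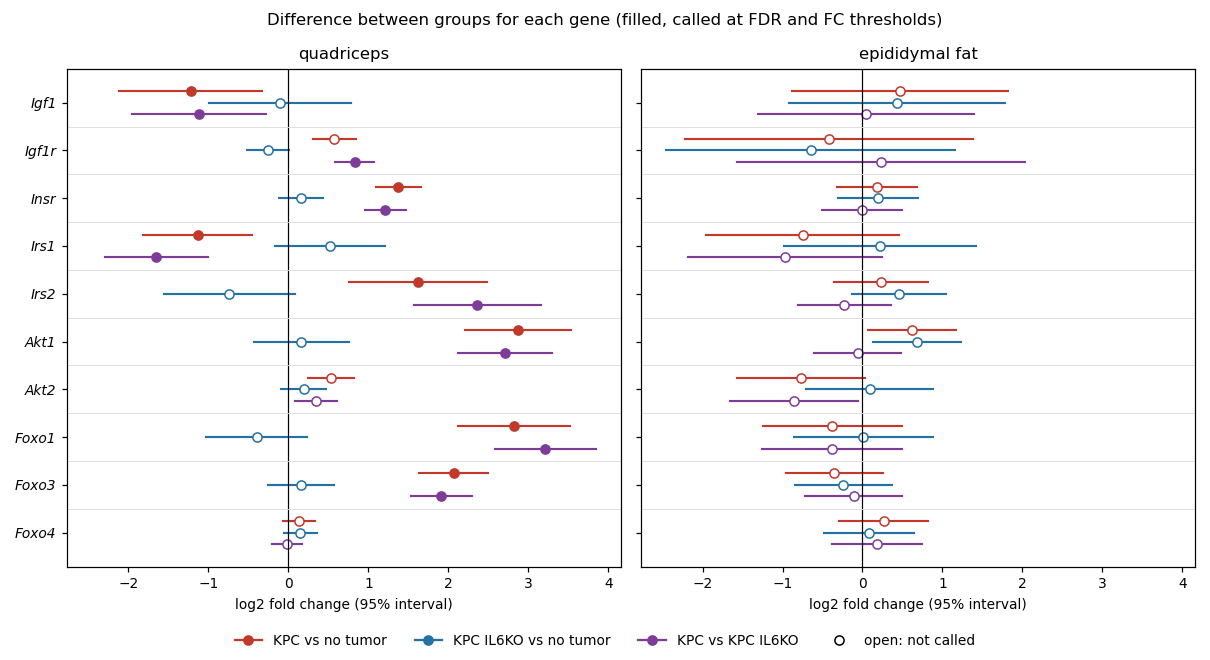
Log2 FC (x axis) of each gene (y axis) in 3 comparisons, in quadriceps (left) and epididymal fat (right). Points are estimates, horizontal lines 95% intervals, filled points genes called at the FDR and FC thresholds and open points genes not called. In quadriceps Foxo1 and Akt1 lie farthest to the right in both comparisons of KPC, and in fat no point is filled.

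Divided by exon length, levels can be set side by side between genes only roughly. The union of exons may be longer than the transcripts present, and the library kit differs between the study's methods and its sample records. In no tumor quadriceps the mean was 64.9 CPM per kb for Foxo4, 43.0 for Akt2 and 16.7 for Akt1, and the other 7 genes lay between 1.05 (Igf1r) and 7.40 (Irs2). In KPC the order began with Akt1 at 121.8 CPM per kb, followed by Foxo4 at 70.9 and Akt2 at 62.2, and ended with Igf1 at 0.595. Irs2, Irs1 and Insr, at 7.40, 6.40 and 6.06 CPM per kb in no tumor, had ranges that overlapped, as had Foxo3 and Igf1 at 1.48 and 1.38.

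Within each family the make-up of the members differed between groups. Other genes of these families, such as Foxo6 and Irs3, were left out of the sums. In CPM per kb, Akt1 was 27.3% to 28.3% of Akt1 and Akt2 together in no tumor, 54.5% to 76.4% in KPC and 26.7% to 28.2% in KPC IL6KO. The sum of both was 58.7 to 61.2, 134 to 265 and 62.2 to 76.4 CPM per kb. Per kb, Akt1 was thus the smaller part in every no tumor and KPC IL6KO library and the larger part in every KPC library. In CPM not divided by exon length, Akt1 exceeded Akt2 in KPC library 3 only, at 829.6 against 447 CPM. In KPC libraries 1, 2 and 4 Akt1 was at 505, 316 and 346 CPM, against 511, 459.9 and 356 CPM for Akt2. Irs1 was 41.6% to 55.2% of Irs1 and Irs2 together in no tumor, 6.79% to 28.3% in KPC and 57.7% to 78.1% in KPC IL6KO. Of the 3 FoxO members, Foxo4 made up most of the sum in every library, with 92.3% to 95.5% in no tumor, 66.8% to 78.6% in KPC and 94.4% to 95.9% in KPC IL6KO. The share of Foxo1 was 2.50% to 5.48%, 15.7% to 25.1% and 2.30% to 3.47%, in the same order. The receptors were mostly Insr, which was 84.1% to 86.2% of Insr and Igf1r in no tumor, 88.2% to 93.7% in KPC and 88.0% to 89.1% in KPC IL6KO. These shares rest on the same counts as the tests above and on the union of annotated exons, which may be longer than the transcripts present, and were not tested again.

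**Figure D3:**
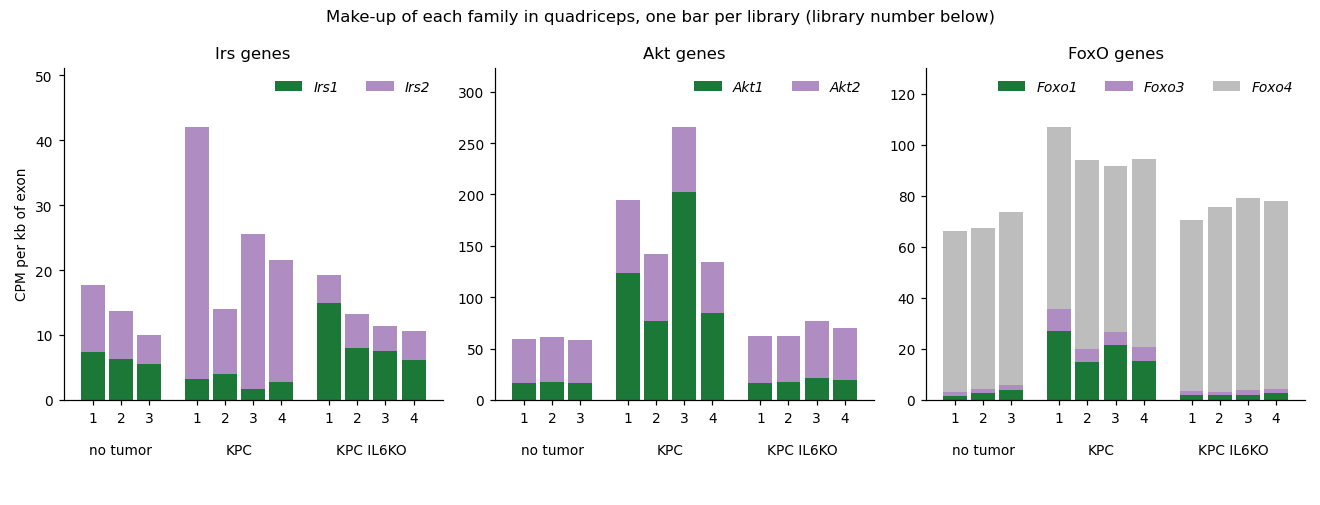
CPM per kb of exon (y axis, linear from 0) in each quadriceps library (x axis, library number and group), stacked by gene for the Irs, Akt and FoxO members. Other genes of these families, such as Foxo6, are left out. Akt1 is the larger part of its bar in all 4 KPC libraries and the smaller part in all others, and Foxo4 is the largest part of every FoxO bar. In CPM not divided by exon length, Akt1 was above Akt2 in KPC library 3 only.

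The sequences before the start sites of Akt1, Foxo1 and Foxo3, the members with the largest rises in KPC against no tumor, are shown. Whether these genes are regulated together was not tested. RefSeq (GRCm38.p6) had 12 start sites for 8 of the 10 members. Windows of 250 bases upstream were searched on both strands for the FoxO site GTAAACA, the STAT site TTCNNNGAA and the CRE site TGACGTCA, which 3.17%, 7.02% and 1.55% of 32851 promoters held. The first Akt1 window held 1 FoxO match, at position -161 relative to the start site, set in capitals. One Akt2 window, from 27591302 to 27591551, held 1 STAT match, and no member window held a CRE match. A match is a description of letters and not of binding. The Akt1 window spans chr12:112674885-112675134 (minus strand), the Foxo1 window chr3:52268087-52268336 (plus strand) and the Foxo3 window chr10:42276696-42276945 (minus strand), each written 5′ to 3′.
Akt1: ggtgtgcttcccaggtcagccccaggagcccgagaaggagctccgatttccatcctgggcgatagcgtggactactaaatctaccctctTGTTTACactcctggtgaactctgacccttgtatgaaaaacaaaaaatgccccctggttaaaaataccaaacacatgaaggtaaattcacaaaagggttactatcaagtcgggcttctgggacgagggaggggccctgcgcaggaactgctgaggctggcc
Foxo1: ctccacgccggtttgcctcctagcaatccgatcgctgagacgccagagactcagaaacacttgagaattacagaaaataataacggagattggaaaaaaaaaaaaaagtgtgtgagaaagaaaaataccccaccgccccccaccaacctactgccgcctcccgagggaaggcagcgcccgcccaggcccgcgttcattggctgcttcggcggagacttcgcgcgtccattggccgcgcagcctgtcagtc
Foxo3: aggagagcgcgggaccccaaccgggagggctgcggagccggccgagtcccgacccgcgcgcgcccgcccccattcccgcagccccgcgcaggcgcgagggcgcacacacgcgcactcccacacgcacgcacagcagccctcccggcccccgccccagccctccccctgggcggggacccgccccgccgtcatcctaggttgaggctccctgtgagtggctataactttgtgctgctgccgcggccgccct
The 3 windows differed in base composition, with 52% G and C in Akt1, 56% in Foxo1 and 76.4% in Foxo3, against a median of 52.4% over all promoters. The window of the second Akt1 start site had 78.4% and no match.

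Around the 10 members, 121 other genes of the pathway were listed, of which 118 were measured in quadriceps. In KPC against no tumor 49 of the 118 rose and 21 fell, where 26.7% of all genes were called higher and 29% lower, and their median log2 FC was 0.31. The counts of the single lists that follow are small and are to be read against these same shares. Of the 25 genes listed as FoxO targets, 18 rose, 3 fell and 4 were not called, and the median log2 FC was 2.28, against -0.03 over all genes. Other transcription factors also act on several of these targets. The lists were chosen with earlier results of these data known, so these counts and medians describe the lists and do not test them.

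Trim63 and Fbxo32 encode the muscle ubiquitin ligases MuRF1 and atrogin-1. Trim63 was at 217, 210 and 349 CPM in no tumor, 11211, 6917, 7307 and 8699 CPM in KPC, and 282, 293, 637 and 401 CPM in KPC IL6KO. Fbxo32 was at 177, 146 and 226 CPM in no tumor, 7739, 5219, 5577 and 5144 CPM in KPC, and 332, 383, 1081 and 676 CPM in KPC IL6KO. Both were far higher in every KPC library, and every KPC IL6KO library was above no tumor in Fbxo32. The log2 FC of KPC against no tumor was 5.04 ± 0.37 for Trim63 (FDR 1.51e-06) and 5.02 ± 0.44 for Fbxo32 (FDR 3.64e-06). For KPC IL6KO against no tumor they were 0.64 (FDR 0.747) and 1.76 (FDR 0.228), not called. The likelihood ratio test and DESeq2 called Fbxo32 there. The largest fall in the list was that of Bcl6, a transcriptional repressor, with -2.36 ± 0.57 (FDR 0.00318). Sesn3 and Sod2 fell by 0.97 and 0.76 on the log2 scale, while Cdkn1a (4.70), Sesn1 (4.24) and Eif4ebp1 (3.95) were among those that rose.

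Among IGF ligands and binding proteins, 2 of 11 measured genes rose and 4 fell. Igfbp5 and Igfbp3, which bind IGF-1 outside the cell, moved in opposite directions. Igfbp5 was at 648, 517 and 758 CPM in no tumor, 18.6, 29.1, 19.6 and 17.6 CPM in KPC, and 696, 511, 572 and 481 CPM in KPC IL6KO. It fell by 4.92 ± 0.22 on the log2 scale in KPC against no tumor (FDR 2.26e-07). Igfbp3 was at 12.95, 14.3 and 21.8 CPM in no tumor, 247, 75.6, 149 and 82.0 CPM in KPC, and 14.4, 19.2, 13.8 and 22.6 CPM in KPC IL6KO, and rose by 3.09 ± 0.42 (FDR 6.35e-05). For both, KPC did not overlap the other groups, which overlapped each other. The fibroblast and fibro-adipogenic progenitor markers given beside Igf1 were also lowest in every KPC library, and their part in the Igfbp5 values was not tested.

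At the receptors, 3 of 8 measured adaptors rose and 1 fell. Irs3 fell by 2.75 ± 0.56 (FDR 0.000988) from a mean of 2.83 CPM. With at least 10 counts required in every library Irs3 was left out, and 0 adaptors were called lower. In KPC IL6KO against no tumor its log2 FC was -1.77, not called. Sh2b1 was not called in KPC against no tumor (log2 FC -0.28, FDR 0.146). Of 10 receptor inhibitors, 4 rose and 1 fell. Socs2, a suppressor of cytokine and growth hormone signaling, rose by 2.34 ± 0.63 (FDR 0.00602), and Grb14, which inhibits the insulin receptor kinase, fell by 2.98 ± 0.39 (FDR 4.65e-05). Fbxo40, a muscle ubiquitin ligase for Irs1, had a log2 FC of 0.19 (FDR 0.334) and Grb10 one of -0.50 (FDR 0.0118), neither called. Without KPC library 1, Grb10 was at -0.60 and called.

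Between the adaptors and Akt, 5 of 13 genes rose and 3 fell. Pik3r1, the regulatory p85 subunit of PI 3-kinase, was at 30.8, 37.6 and 30.5 CPM in no tumor, 568, 134, 284 and 155 CPM in KPC, and 25.98, 23.1, 27.2 and 37.8 CPM in KPC IL6KO, and rose by 3.11 ± 0.46 (FDR 0.000115). Pdpk1, whose kinase PDK1 activates Akt, rose by 1.84 ± 0.18 (FDR 7.83e-06), and Pik3cd, a catalytic subunit best known in leukocytes, fell by 2.19 ± 0.29 (FDR 5.00e-05). Of 12 brakes on PI 3-kinase and Akt, 4 rose and 2 fell, and only 2 rose without no tumor library 1 or without KPC library 1. The lipid phosphatase gene Inppl1 fell by 1.98 ± 0.20 (FDR 8.90e-06), Trib2 fell by 2.16 ± 0.42 (FDR 0.000777), and Pik3ip1, an inhibitor of the PI 3-kinase catalytic subunit, rose by 1.34 ± 0.17 (FDR 3.76e-05). Trib3 rose by 2.03 ± 0.28 (FDR 7.18e-05), to a mean of only 3.51 CPM.

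Downstream of Akt, 5 of 11 other substrates rose and 1 fell. Tbc1d1, which acts in glucose transporter traffic, rose by 2.42 ± 0.18 (FDR 1.52e-06), Akt1s1, the mTORC1 inhibitor PRAS40, rose by 0.95 ± 0.13 (FDR 5.69e-05), and Gsk3a was under the FC threshold (0.58, FDR 0.00122) but past it with DESeq2 (0.62). Foxo6, the remaining FoxO gene of the mouse, fell by 5.27 ± 0.48 (FDR 4.76e-06), from a mean of 15.1 CPM to 0.389 CPM. Of 15 regulators of FoxO, 7 rose and 1 fell. The coactivator gene Crebbp rose by 1.36 ± 0.19 (FDR 6.35e-05), the mitochondrial deacetylase gene Sirt3 fell by 1.89 ± 0.29 (FDR 0.000149), and the 14-3-3 gene Ywhag was not called (0.38, FDR 0.0218). Sgk1, a kinase that also phosphorylates FoxO, rose by 0.69 ± 0.27 (FDR 0.0405), a call lost when any of 6 libraries was left out, with a lowest log2 FC of 0.40 without KPC library 1. The call on Sgk1 was also lost with a replicate block (0.62, FDR 0.0844) and with the 2 groups alone (0.71, FDR 0.0529).

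Of 13 insulin-responsive metabolic genes, 1 rose and 5 fell. Elovl6, a fatty acid elongase, fell by 3.69 ± 0.50 (FDR 6.36e-05). Lpl and Slc2a4, which encode lipoprotein lipase and the glucose transporter GLUT4, were not called, with log2 FC of 0.25 (FDR 0.590) and 0.06 (FDR 0.827).

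Against KPC IL6KO, 52 of the 118 pathway genes were higher in KPC and 18 lower, 17 and 3 of them FoxO targets. Of all genes, 26.4% were called higher and 27.3% lower in this comparison. Between KPC IL6KO and no tumor 0 of 118 were called by the quasi-likelihood test, with 18 at an unadjusted p under 0.05. The likelihood ratio test called 6 and DESeq2 called 5. Of all 12831 genes, the 3 tests called 0, 95 and 93, in the same order. By the quasi-likelihood test 887 of all genes were at an unadjusted p under 0.05. Each list's median log2 FC was then between -0.63 and 0.19.

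**Figure D4:**
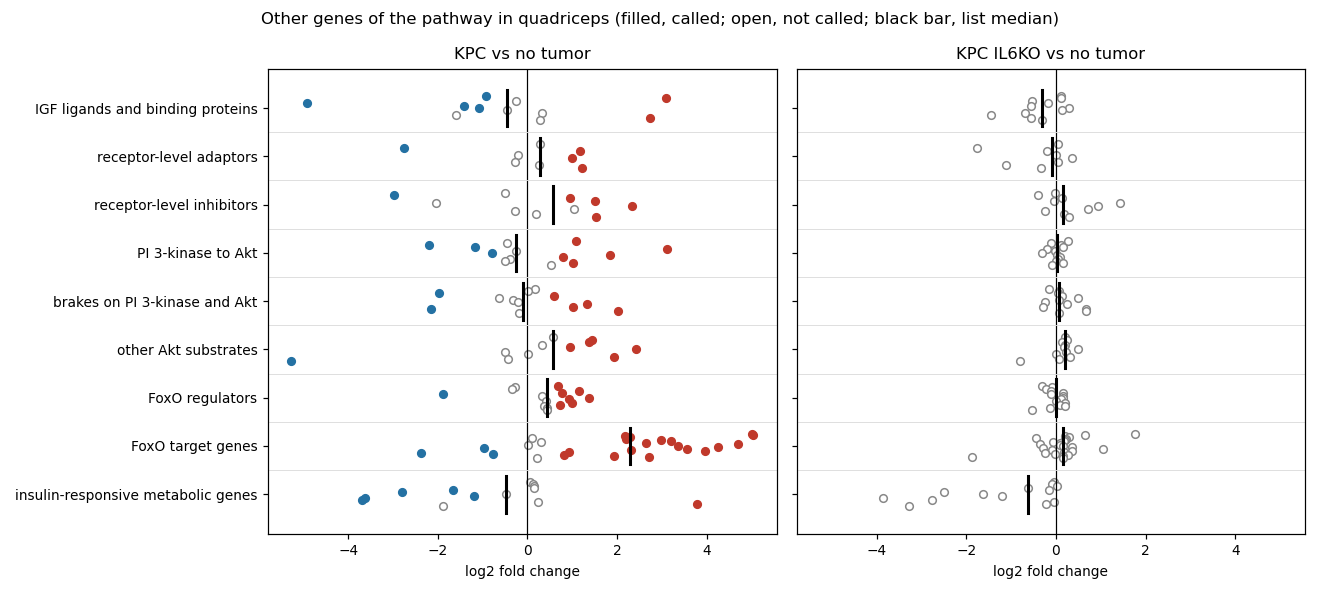
Log2 FC (x axis) of the 118 measured pathway genes in quadriceps by list (y axis), for KPC against no tumor (left) and KPC IL6KO against no tumor (right). Each point is 1 gene, filled where called, and black bars are list medians. The FoxO targets have a median of 2.28 on the left, and no point on the right is filled. The lists were chosen with earlier results of these data known.

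Over the 11 quadriceps libraries, the genes whose log2 CPM was most like that of Foxo1 were Arrdc3 (Pearson r 0.993), Lgals3 (0.990) and Tmem50a (0.989). For Irs2 they were Dgcr2, Fosl2 and Spty2d1 (0.973 to 0.974), and for Igf1 Etv5, Mr1 and Fbxw17 (0.956 to 0.962). These are descriptions over libraries that share 3 groups.

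In epididymal fat, 0 of the 10 genes were called in any comparison by the quasi-likelihood test, the likelihood ratio test or DESeq2. The quasi-likelihood test called 0% of all genes in each of the 3 comparisons, and 1 member had an unadjusted p under 0.05 in each. The likelihood ratio test called 413, 209 and 66 genes and DESeq2 called 585, 285 and 125, for KPC against no tumor, KPC IL6KO against no tumor and KPC against KPC IL6KO. Groups did not overlap in Akt1 between KPC and no tumor and in Akt2 between KPC and KPC IL6KO, while 10.9%, 2.01% and 4.33% of all genes did not overlap in the same order of comparisons. The spread within groups was wide, with a common dispersion of 0.403 in fat and 0.0517 in quadriceps.

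Akt1 was the member of fat with the smallest unadjusted p between KPC and no tumor, 0.0304 by edgeR. It was at 115, 107, 107 and 95.4 CPM in no tumor libraries 5 to 8, 183, 145, 143 and 180 CPM in KPC, and 265, 108, 128 and 178 CPM in KPC IL6KO. All KPC libraries were above all no tumor libraries. The log2 FC was 0.62 with a 95% interval of 0.07 to 1.17 for KPC (FDR 0.363) and 0.68 with an interval of 0.13 to 1.23 for KPC IL6KO (FDR 0.451), neither called. Markers of other cell types also differed between these groups. The 7 macrophage markers summed to between 227 and 943 CPM in no tumor, 1060 and 1674 CPM in KPC, and 386 and 2607 CPM in KPC IL6KO. For 6 measured of 7 neutrophil markers the sums were 4.91 to 14.6, 27.5 to 59.5 and 8.74 to 83.4 CPM, and for 5 mesothelial markers they were 112 to 294, 244 to 651 and 214 to 1353 CPM, in the same order. The part of these cells in the Akt1 values was not tested.

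Akt2 was at 109, 296, 86.2 and 162 CPM in no tumor, 105, 93.0, 92.8 and 92.1 CPM in KPC, and 149, 119, 269 and 156 CPM in KPC IL6KO. The KPC libraries lay close together and below all KPC IL6KO libraries, with a log2 FC of -0.86 and a 95% interval of -1.66 to -0.05 (FDR 0.774). In both other groups the highest library, no tumor 6 and KPC IL6KO 7, was also the highest in adipocyte markers, at 19379 and 11448 CPM. These 2 libraries were highest in their groups in Foxo1 too, at 148 and 100.4 CPM. Foxo1 was otherwise at 53.9, 36.4 and 51.2 CPM in no tumor, at 70.4, 56.3, 38.5 and 57.9 CPM in KPC, and at 69.2, 56.0 and 65.3 CPM in KPC IL6KO. Irs1 ranged from 12.5 to 92.0 CPM in no tumor, from 15.4 to 32.5 CPM in KPC and from 25.03 to 76.7 CPM in KPC IL6KO. The part of fat cell content in these values was not tested.

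Igf1r in fat moved with the epididymis marker Gpx5. It was at 556, 56.9, 311 and 79.6 CPM in no tumor, 109.97, 274, 177 and 189 CPM in KPC, and 63.0, 445, 73.9 and 58.1 CPM in KPC IL6KO. The libraries between 109.97 and 556 CPM, which are no tumor 5 and 7, all 4 KPC and KPC IL6KO 6, were the 7 with high Gpx5, and the 5 with low Gpx5 lay between 56.9 and 79.6 CPM. Summed CPM of the 8 epididymis markers, all of which were in the fat table, was 13510 to 83717 in no tumor, 39714 to 63978 in KPC and 741 to 87499 in KPC IL6KO. Among libraries with low Gpx5 the sum was 13510 and 18142 CPM in no tumor 6 and 8. It was 741, 15210 and 10153 CPM in KPC IL6KO 5, 7 and 8. Low Gpx5 thus did not mean that epididymis markers were absent. Between KPC and KPC IL6KO the log2 FC of these markers ranged from -1.37 (Crisp1) to 2.61 (Lcn5), none called. With the mean log2 CPM of these markers as a covariate, the log2 FC of Igf1r between KPC and KPC IL6KO went from 0.23 to -1.14, and with the 7 Gpx5-high libraries alone it was -1.13, neither called. Those 7 are no tumor 5 and 7, all 4 KPC and only 1 KPC IL6KO library, at 445 CPM of Igf1r, which was assumed to vary like the others. That of Foxo1 in KPC against no tumor went from -0.37 to 0.03 with the covariate and 0.40 with the 7 libraries, and that of Irs1 from -0.75 to 0.05 and 0.54.

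The remaining members of fat had overlapping groups in all comparisons. Igf1 ranged from 32.6 to 214 CPM in no tumor, 62.2 to 332 CPM in KPC and 96.6 to 195.1 CPM in KPC IL6KO. Insr ranged from 135 to 208, 129 to 234 and 142 to 224 CPM, and Irs2 from 15.02 to 28.3, 18.7 to 35.2 and 22.1 to 38.8 CPM, in the same order. Foxo3 was at 14.4 to 32.6 CPM, 17.4 to 20.9 CPM and 14.5 to 25.2 CPM, and Foxo4 at 31.7 to 46.3 CPM, 29.8 to 72.1 CPM and 36.6 to 41.2 CPM. Insr in KPC against no tumor had a log2 FC of 0.18 with a 95% interval of -0.32 to 0.68, and Foxo3 one of -0.35 with an interval of -0.96 to 0.25. Over the 12 fat libraries, the genes most like Igf1 were Mrap, Itga7 and Adipor2 (Pearson r 0.978 to 0.982), those most like Foxo1 were Etfa, Idh3g and Sptbn1 (0.960 to 0.962), and those most like Irs2 were Ap2a2, Camta2 and Sh3tc1 (0.862 to 0.906).

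**Figure D5:**
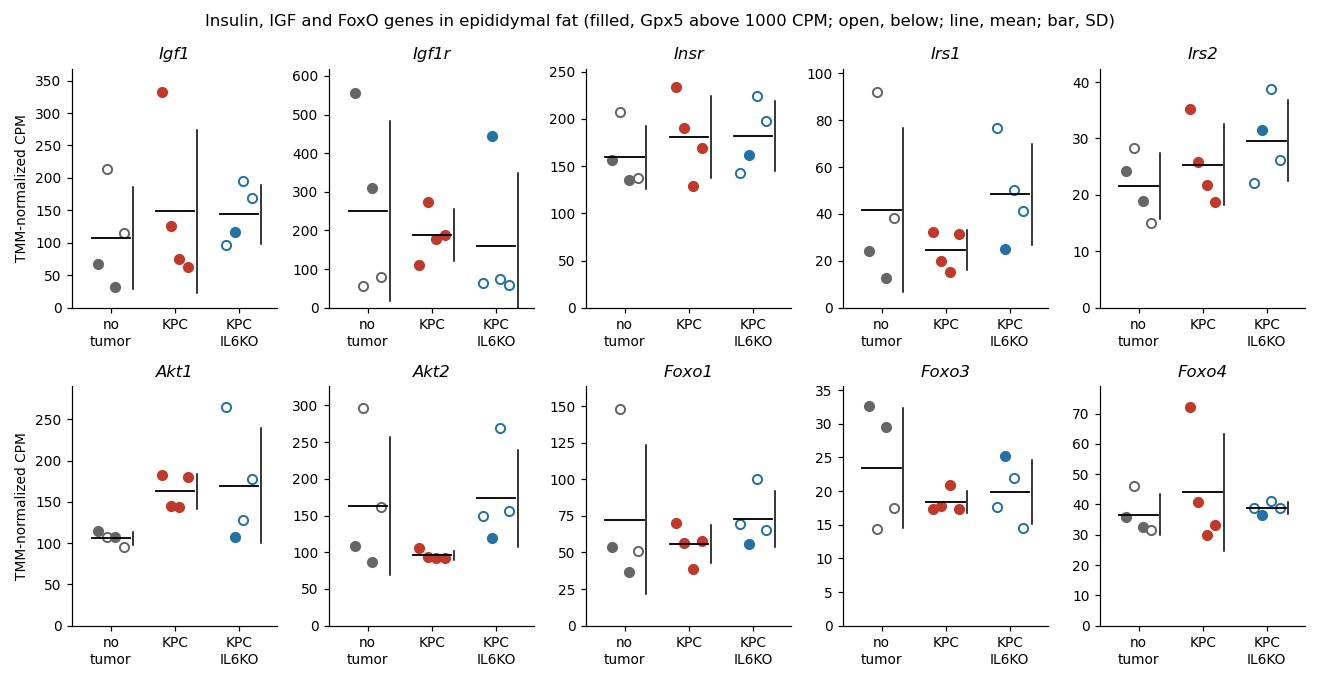
TMM-normalized CPM (y axis, linear from 0) of each of the 10 genes in each epididymal fat library, by group (x axis). Points are libraries, filled where Gpx5 was above 1000 CPM and open where it was below, horizontal lines are means and vertical bars 1 SD. All filled points of Igf1r, 109.97 CPM and higher, lie above all open points, which reach 79.6 CPM.

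Whether the response to the tumor differed between the tissues was tested for each gene as the log2 FC in fat minus that in quadriceps, over 12599 genes measured in both and called at an edgeR FDR of at most 0.05. For KPC against no tumor the difference was called for 6 of 10 members and 38.6% of all genes. It was -3.08 ± 0.54 (SE) for Foxo1 (FDR 0.000233), -2.30 ± 0.35 for Foxo3 (FDR 5.84e-05), -2.14 ± 0.39 for Akt1 (FDR 0.000311) and -1.08 ± 0.26 for Insr (FDR 0.00301). For those 4 genes the log2 FC was thus lower in fat than in quadriceps. It was -1.27 ± 0.48 for Irs2 (FDR 0.0425) and -1.19 ± 0.43 for Akt2 (FDR 0.0351), but these calls were lost when any of 11 and any of 9 single libraries were left out, with values down to -0.88 for Irs2 without quadriceps KPC library 1 and -0.74 for Akt2 without fat no tumor library 6. For Igf1 the difference was 1.79 ± 0.80 (FDR 0.0835), not called, but without fat no tumor library 6 it was 2.36 (FDR 0.0215) and called.

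Between KPC and KPC IL6KO the difference between tissues was called for 5 members and 33.3% of all genes. It was -3.46 ± 0.51 for Foxo1 (FDR 5.45e-05), -2.62 ± 0.37 for Akt1 (FDR 3.43e-05), -2.44 ± 0.46 for Irs2 (FDR 0.000543), -1.87 ± 0.33 for Foxo3 (FDR 0.000263) and -1.08 ± 0.25 for Insr (FDR 0.00244). All 5 were thus less high in KPC relative to KPC IL6KO in fat than in quadriceps. For Akt2 it was -1.06 ± 0.41 (FDR 0.0536), not called. It was called with the likelihood ratio test (FDR 0.0421), with RLE normalization (-1.10, FDR 0.0391) and with TMM within each tissue (-1.13, FDR 0.0426), and also without quadriceps KPC library 4, fat no tumor library 5, 6 or 7, or fat KPC IL6KO library 5 or 6, where the smallest FDR was 0.0164. For KPC IL6KO against no tumor, 0 members and 0% of all genes were called. The test between tissues treats the 23 libraries as independent and has no term for epididymis markers in fat. For Akt2 in fat, the log2 FC of KPC against no tumor was -0.77, and 0.07 with only the Gpx5-high libraries. Since the tissues were extracted and sequenced separately, their levels are not compared, only their differences between groups.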

How the data were processed

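RNA of quadriceps (11 libraries) and epididymal fat (12 libraries) was sequenced as paired reads. The authors aligned reads with STAR to mm10 and assigned them to genes with featureCounts 1.5.1, per the labels and processing notes, and deposited raw counts, 1 table per tissue, with no normalization. The notes also name edgeR 3.12.1. The strand setting and the rule that left low-count genes out are not given in the sources used here, and the library kit differs between the study's methods and its sample records. One muscle library of the no tumor group, which the study left out as an outlier, was not analysed here. Samples were grouped by their titles.

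Counts were normalized by TMM and fitted in edgeR 4.0.16 (R 4.3.3, limma 3.58.1) with glmQLFit and glmQLFTest, the 3 groups of a tissue in 1 fit without a replicate term. FDR is the Benjamini-Hochberg value over all genes of the table, and filterByExpr removed 0 genes. SE is the log2 FC divided by the root of the F statistic, and 95% intervals multiply it by the t quantile at the degrees of freedom of that F test. Differences between tissues were fitted over all 23 libraries. Exon length and positions come from GENCODE M21 (GRCm38), and promoters from RefSeq. Markers of other cell types were summed as CPM. The named genes were the 10 members and, in each pathway list, the 2 with the highest mean CPM in quadriceps and the largest called rise and fall, and for Igf1, Irs2 and Foxo1 the 3 most correlated genes among those averaging 1 or more on the log2 CPM scale. Sesn3, Sod2, Cdkn1a, Sesn1 and Eif4ebp1, and the genes of the closing observations, were added after their values were seen. The tumor line's genotype and a pair of genes that this rule names are not reported here. Members and lists were chosen with earlier results of these data known.

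Alternatives were DESeq2 1.42.0, the likelihood ratio test, the newer quasi-likelihood fit, RLE normalization, other filters, the compared groups alone, a replicate block, an epididymis covariate and leaving out each library. The fit with Gpx5-high libraries only, leaving out libraries in the test between tissues, and the alternatives for lists were added after seeing the data. Deviations from the group mean were correlated between libraries of different groups. In quadriceps r was -0.15 to 0.26 for the same number and -0.24 to 0.27 for other numbers. In fat r was -0.52 to 0.67 for the same number and -0.64 to 0.60 for other numbers. The ranges were alike, though the highest r in fat was for a same-number pair. No 2 libraries of a group were alike within counting noise (chi-square per degree of freedom at least 28.9). The pipeline was tested on simulated data.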

Additional observations from a re-analysis of the deposited data

Results flagged for a closer look

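In 50 groups of 4 libraries, 1 library stood apart from the rest by Dixon's criterion in 5 cases, where chance gives about 1 in 20. In quadriceps it was Foxo3 in KPC library 1, at 65.5 CPM. In epididymal fat the cases were Foxo1 in no tumor library 6 (148 CPM), Akt2 in KPC library 5 (105 CPM), Foxo3 in KPC library 7 (20.9 CPM) and Igf1r in KPC IL6KO library 6 (445 CPM). No tumor library 6 had the highest sum of adipocyte markers of all fat libraries, 19379 CPM, and KPC IL6KO library 6 the highest sum of epididymis markers, 87499 CPM. Their part in these values was not tested.

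The response in fat differed from that in quadriceps by the test of the difference itself for 6 members in KPC against no tumor, with differences in log2 FC of -1.08 for Insr, -1.27 for Irs2, -2.14 for Akt1, -1.19 for Akt2, -3.08 for Foxo1 and -2.30 for Foxo3. It differed for 5 members in KPC against KPC IL6KO, with -1.08 for Insr, -2.44 for Irs2, -2.62 for Akt1, -3.46 for Foxo1 and -1.87 for Foxo3. Of all genes, 38.6% were called in the first of these tests and 33.3% in the second. In the first, the calls of Irs2 and Akt2 were lost when certain single libraries were left out, as given above. Neither test had a term for epididymis markers in fat.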

How the results depend on the processing

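The number of members called stayed within 1.5 times its value in every alternative run: 7 to 8 in quadriceps for KPC against no tumor (6 to 8 with 1 library left out), 8 for KPC against KPC IL6KO (7 to 8), and 4 to 6 and 5 to 6 between tissues with 1 library left out. No member was called in fat, or between KPC IL6KO and no tumor, in any alternative. Changed calls of members are given beside their values. With 1 library left out, 12 counts of called genes in single pathway lists moved by over 1.5 times, and under other settings 8 such counts did, and the cause was not tested. The labels do not say that the numbers pair mice, and libraries with the same number deviated over ranges of r like those of other pairs. The numbers were therefore not used to pair libraries, and the replicate block is given only as an alternative. The smallest count of a member in a quadriceps library was 109. The signs that changed were those of differences not called.

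With DESeq2, the log2 FC that changed sign were Foxo4 0.000454 in quadriceps for KPC against KPC IL6KO, Foxo1 -0.0177 in fat for KPC IL6KO against no tumor and Insr 0.00584 in fat for KPC against KPC IL6KO. With RLE normalization, the log2 FC that changed sign were Foxo4 0.000513 in quadriceps for KPC against KPC IL6KO, Foxo1 -0.0177 in fat for KPC IL6KO against no tumor, Insr 0.00576 in fat for KPC against KPC IL6KO and Insr -0.0473 between tissues for KPC IL6KO against no tumor. With at least 10 counts in every library, the log2 FC that changed sign were Fbxo40 -0.0209 in quadriceps for KPC against KPC IL6KO, Foxo1 -0.0096 in fat for KPC IL6KO against no tumor and Insr 0.00456 in fat for KPC against KPC IL6KO. With only the 2 groups compared, the log2 FC that changed sign were Fbxo40 -0.0306 in quadriceps for KPC against KPC IL6KO and Insr 0.00746 in fat for KPC against KPC IL6KO. With a replicate block, the log2 FC that changed sign were Lpl -0.0422 and Slc2a4 -0.0528 in quadriceps for KPC against no tumor, Fbxo40 -0.0244 in quadriceps for KPC against KPC IL6KO and Igf1 -0.229 in fat for KPC against KPC IL6KO. With the epididymis covariate, the log2 FC that changed sign were Irs1 0.0454 and Foxo1 0.0267 in fat for KPC against no tumor, Igf1r 0.342, Irs1 -0.155, Akt2 -0.131, Foxo1 -0.181, Foxo3 0.119 and Foxo4 -0.00328 in fat for KPC IL6KO against no tumor and Igf1r -1.14, Insr 0.16, Irs1 0.20, Akt1 0.236 and Foxo1 0.208 in fat for KPC against KPC IL6KO. With only the Gpx5-high libraries, which leave 1 KPC IL6KO library that is assumed to vary like the others, the log2 FC that changed sign were Irs1 0.537, Akt2 0.0711 and Foxo1 0.398 in fat for KPC against no tumor, Igf1r 0.0293 and Akt1 -0.0612 in fat for KPC IL6KO against no tumor and Igf1r -1.13, Insr 0.263, Irs1 0.0893, Akt1 0.703 and Foxo1 0.0986 in fat for KPC against KPC IL6KO. With TMM within each tissue, the log2 FC that changed sign were Insr -0.0156 between tissues for KPC IL6KO against no tumor. 

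Leaving out 1 library at a time changed the sign of further log2 FC, given from lowest to highest. In quadriceps, for KPC against KPC IL6KO, they were Foxo4 (-0.0544 to 0.020), Fbxo40 (-0.108 to 0.143), Slc2a4 (-0.113 to 0.302) and Lpl (-0.146 to 0.505). In quadriceps, for KPC IL6KO against no tumor, they were Igf1 (-0.256 to 0.114). In quadriceps, for KPC against no tumor, they were Lpl (-0.195 to 0.502) and Slc2a4 (-0.156 to 0.26). In fat, for KPC against no tumor, they were Igf1r (-0.749 to 0.333), Foxo1 (-0.596 to 0.242), Igf1 (-0.29 to 1.05) and Foxo4 (-0.080 to 0.413). In fat, for KPC IL6KO against no tumor, they were Igf1r (-1.95 to 0.102), Akt2 (-0.211 to 0.546), Foxo1 (-0.213 to 0.625) and Irs1 (-0.0986 to 0.957). In fat, for KPC against KPC IL6KO, they were Igf1 (-0.717 to 0.302), Foxo4 (-0.162 to 0.33), Igf1r (-0.0468 to 1.53), Insr (-0.158 to 0.136), Akt1 (-0.224 to 0.24) and Foxo3 (-0.236 to 0.0255). Between tissues, for KPC IL6KO against no tumor, they were Insr (-0.138 to 0.137), Irs1 (-0.639 to 0.38), Igf1r (-1.68 to 0.274), Akt2 (-0.448 to 0.298) and Foxo4 (-0.147 to 0.013). Between tissues, for KPC against no tumor, they were Foxo4 (-0.0956 to 0.378). Between tissues, for KPC against KPC IL6KO, they were Igf1r (-0.71 to 0.831).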

Other observations

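Some genes of fatty acid synthesis that insulin raises, chosen here after their values were seen, were at lower CPM in quadriceps of both tumor groups than in no tumor. Scd1, which makes monounsaturated fatty acids, was at 541, 1107 and 472 CPM in no tumor, 174, 27.3, 16.3 and 10.1 CPM in KPC, and 91.7, 34.1, 36.01 and 33.5 CPM in KPC IL6KO. Fasn, the fatty acid synthase gene, was at 315, 462 and 189 CPM in no tumor, 77.2, 66.2, 16.4 and 25.9 CPM in KPC, and 134, 25.6, 22.7 and 45.1 CPM in KPC IL6KO. Neither tumor group overlapped no tumor in these genes or in Acly and Elovl6. For KPC IL6KO against no tumor the log2 FC was -3.86 ± 0.88 (SE) for Scd1, -2.50 ± 0.67 for Fasn and -1.21 ± 0.19 for Acly, with edgeR FDR of 0.278, 0.321 and 0.162, so none was called by the quasi-likelihood test. The likelihood ratio test called all 3, and DESeq2 called Scd1 and Acly. Summed CPM of the 7 adipocyte markers in quadriceps was 349 to 1567 in no tumor, 152 to 762 in KPC and 167 to 363 in KPC IL6KO. All 7 markers had a log2 FC below 0 against no tumor in both tumor groups. The median was -2.16 in KPC IL6KO (-3.54 to -1.30, 0 called) and -1.28 in KPC (-2.70 to -0.23, 2 called). The part of fat cells in the values of these genes was not tested.

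In epididymal fat of KPC mice, Socs3, an inhibitor of cytokine and insulin receptor signaling, was at 2.29 to 4.43 CPM in no tumor, 41.9 to 91.2 CPM in KPC and 8.61 to 75.8 CPM in KPC IL6KO, and neither tumor group overlapped no tumor. Its log2 FC in KPC was 4.10 ± 0.64 (edgeR FDR 0.0763), not called, while the likelihood ratio test and DESeq2 called it in both tumor groups. For Igfbp5, no tumor libraries ranged from 62.2 to 403.5 CPM and KPC libraries from 25.4 to 39.1 CPM, with a log2 FC of -2.54 ± 0.50 (FDR 0.168), and for Igfbp3 from 17.1 to 39.9 CPM and from 57.8 to 253 CPM, with a log2 FC of 2.23 ± 0.58 (FDR 0.225). DESeq2 called 12 of 120 pathway genes in this comparison and the likelihood ratio test 8, these 3 among them, where they called 585 and 413 of all 16962 genes.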
